A study of Mus musculus with 36 samples.

Results

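The interferon-stimulated effector genes described here are 49 genes of the antiviral state, chosen by gene symbol from the 53465 genes of the deposited count table. The set holds sensors of viral nucleic acid, antiviral enzymes and GTPases, and the gene of interferon beta itself, and it leaves out the IRF and STAT transcription factors. All 49 symbols were found, and all 49 passed the filter on low counts over the 36 libraries. Without the libraries that received LPS, 41 would have passed, and Ifnb1, Zbp1, Isg15, Mx1, Gbp2, Gbp2b, Gbp5 and Iigp1 would not, so these 8 entered the tests through the groups in which they were high.

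RNA was sequenced from RAW264.7 cells, a macrophage-like mouse cell line labelled wild type. Cells received the bacterial cell wall product lipopolysaccharide (LPS) at 10 µg/mL with melatonin at 0.1, 1, 10 or 100 µM or 1 mM, LPS alone, melatonin alone at the same 5 doses, or solvent alone. Each of these 12 groups had 3 libraries. Where both agents were given, melatonin was added 30 min ahead of LPS, and the treatment lasted 12 h. All groups are the same cell line in bulk. Nothing in the labels says that the 3 libraries of a group are separate cultures, so the p-values cover only the differences among these libraries, which may be technical.

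In macrophages, LPS acts through Toll-like receptor 4, whose adaptor TRIF leads to the factor IRF3 and to transcription of Ifnb1. The secreted interferon beta binds the receptor IFNAR on the same and neighbouring cells, and a complex of transcription factors then binds a DNA element called the ISRE (interferon-stimulated response element) in the promoters of antiviral genes. The products of these genes detect foreign RNA or DNA, degrade or edit it, block its translation, or attack the vacuoles in which pathogens live.

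Promoters are shown for 6 members that carry the results below: Isg15, Rsad2 and Gbp2b, which LPS raised and whose difference between LPS with 1 mM melatonin and LPS did not pass the test, and Oas1a, Ifit3 and Oasl1, which were lower with LPS and 1 mM melatonin than with LPS. Each is the 250 bases before the RefSeq start (GRCm38.p6), written 5′ to 3′ on the strand of the gene. Capitals mark matches to the ISRE core GAAANNGAAA on either strand.
Isg15 (chr4:156200819-156201068, minus strand): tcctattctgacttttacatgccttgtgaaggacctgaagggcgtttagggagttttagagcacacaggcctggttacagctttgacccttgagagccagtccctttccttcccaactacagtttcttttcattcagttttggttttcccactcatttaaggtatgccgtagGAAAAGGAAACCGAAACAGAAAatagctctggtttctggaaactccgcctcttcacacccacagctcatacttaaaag
Rsad2 (chr12:26456453-26456702, minus strand): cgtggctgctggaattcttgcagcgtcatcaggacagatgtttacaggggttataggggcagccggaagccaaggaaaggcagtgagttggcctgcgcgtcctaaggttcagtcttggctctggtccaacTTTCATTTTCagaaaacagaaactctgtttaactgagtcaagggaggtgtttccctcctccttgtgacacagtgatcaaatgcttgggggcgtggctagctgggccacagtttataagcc
Gbp2b (chr3:142594597-142594846, plus strand): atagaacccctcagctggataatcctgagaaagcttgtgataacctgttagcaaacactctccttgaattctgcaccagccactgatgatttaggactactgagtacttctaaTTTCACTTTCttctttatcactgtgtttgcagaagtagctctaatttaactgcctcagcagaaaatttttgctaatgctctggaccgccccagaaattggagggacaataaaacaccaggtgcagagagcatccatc
Oas1a (chr5:120907526-120907775, minus strand): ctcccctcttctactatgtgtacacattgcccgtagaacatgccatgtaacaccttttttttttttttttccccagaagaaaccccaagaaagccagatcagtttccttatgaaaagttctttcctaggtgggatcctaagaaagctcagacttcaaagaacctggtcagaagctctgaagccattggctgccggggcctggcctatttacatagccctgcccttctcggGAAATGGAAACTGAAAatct
Ifit3 (chr19:34583279-34583528, plus strand): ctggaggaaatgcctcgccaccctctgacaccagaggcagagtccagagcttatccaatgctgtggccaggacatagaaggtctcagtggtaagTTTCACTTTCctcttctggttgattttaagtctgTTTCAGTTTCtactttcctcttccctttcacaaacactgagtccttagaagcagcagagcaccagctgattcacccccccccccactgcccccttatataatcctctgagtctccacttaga
Oasl1 (chr5:114922990-114923239, plus strand): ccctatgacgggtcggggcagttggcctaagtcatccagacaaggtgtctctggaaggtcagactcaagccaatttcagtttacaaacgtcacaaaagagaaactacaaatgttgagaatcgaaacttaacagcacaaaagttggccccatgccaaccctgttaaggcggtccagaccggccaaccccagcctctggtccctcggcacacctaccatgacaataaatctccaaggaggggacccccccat

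Isg15 held 3 overlapping matches, whose 5′ bases lie 78, 72 and 66 bases before the start. Oas1a held a pair of overlapping matches at 20 and 14 bases, and Ifit3 a pair at 156 and 122 bases. Rsad2 and Gbp2b held 1 each, at 120 and 137 bases, and the Oasl1 window held none. RefSeq promoters of 300 bases (250 before and 50 after the start) were found for 38 of the 49 members. The ISRE core was in 24 of their 44 promoters (54.5%), which belong to 22 genes, against 3.43% of all 32817 RefSeq promoters. None of the 15 promoters of 13 inflammatory cytokine and enzyme genes held it, and with so few promoters this is not set apart from the share of all promoters. The core occurred in 5 of 12 members that were lower with LPS and 1 mM melatonin than with LPS, and in 14 of 18 that LPS raised without a difference that passed there. The motif TTCNNNGAA of STAT dimers, which reads the same on both strands and can overlap the ISRE core, was in 22.7% of the members' promoters, against 8.29% of all promoters. The NF-kB type motif GGGNNNNNCC, searched on both strands, was in 59.1% of the members' promoters, against 50.8% of all. Of the 15 promoters of the inflammatory genes, 12 (80%) held GGGNNNNNCC and 0 held TTCNNNGAA. A match describes letters only.

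The members cluster by family in the mm10 assembly with the GENCODE M21 gene records. The 6 oligoadenylate synthetase genes lie on chromosome 5, the 5 guanylate-binding protein genes on chromosome 3 and the 3 Ifit genes on chromosome 19. Isg15 lies at chromosome 4, 156199424 to 156200818, and Rsad2 at chromosome 12, 26442746 to 26456452, on the minus strand, beside Cmpk2 at 26469204 to 26479837 on the plus strand. The records of 20 members overlap another gene record, among them Igtp with Irgm2 on the same strand, Parp9 with Dtx3l on opposite strands, and Rtp4 with Masp1. These overlaps are of whole gene records, and the strand setting of the counting is not given in the sources used here. Reads from a stretch that overlapping genes share may therefore not be told apart, and on the same strand no such setting would separate them. Values of close relatives (Oas1a with Oas1g, Oasl1 with Oasl2, Gbp2 with Gbp2b, Ifi204 with the other genes of its family) may share reads and are uncertain to that extent. The M21 record calls Mx2 a polymorphic pseudogene.

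Between 4203313 and 7590271 reads were counted per library, and the smallest total was that of replicate 3 of LPS with 1 mM melatonin. Of the 7 macrophage markers checked, Csf1r, Lyz2, Cd68, Itgam, Ptprc and Fcgr1 averaged over 50 CPM (counts scaled to a common library size by the TMM factors) in every one of the LPS with 1 mM melatonin, LPS, 1 mM melatonin and solvent groups. The remaining marker, Adgre1, is not among them. Lyz2, Itgam, Adgre1, Fcgr1 and Ptprc were lower with LPS and 1 mM melatonin than with LPS, as given below. The markers of T cells, B cells, epithelium and fibroblasts averaged under 2 CPM in these 4 groups, which are LPS with 1 mM melatonin, LPS, 1 mM melatonin and solvent. Siglech, a marker of plasmacytoid dendritic cells, averaged 3.72 CPM in LPS with 1 mM melatonin, 2.04 CPM in LPS, 34.4 CPM in 1 mM melatonin and 68.5 CPM in solvent, and its part in the results was not tested. Single libraries stood apart from their labels. A score used 376 genes that are no members and whose difference between LPS and solvent did not pass the test. These genes differed at least 2-fold between LPS with 1 mM melatonin and LPS with the 3 lowest doses. Each library without LPS was scored by how much of that difference it showed. In cells given 1 mM melatonin alone, the score was 13.1% in replicate 1, 9.61% in replicate 2 and 1.14% in replicate 3. It was 15.5% in replicate 1 of 1 µM melatonin alone, and the other libraries without LPS lay between -3.06% and 4.01%. Replicate 3 of 1 mM and replicate 1 of 1 µM melatonin alone are therefore called the libraries in doubt, and results on melatonin alone and on the LPS response in melatonin are given with and without them. They were picked by their score on a 1 mM profile. A larger effect of 1 mM melatonin without them is therefore partly set by that choice. Replicate 3 of LPS with 1 mM melatonin also stood apart from its group: a chi-square comparison of counts gave 37.7 and 37.1 per degree of freedom against replicates 1 and 2, which gave 14.4 against each other. Its effect on the main comparison is given there.

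LPS raised most of the set. Against solvent, 39 of 49 members were higher and 0 were lower at an adjusted p under 0.05 (edgeR's quasi-likelihood test, Benjamini-Hochberg over 16988 genes), where 8.39% of all genes tested were higher and 8.09% were lower. At least a 2-fold difference was seen for 36 of the 39. Zbp1, Isg15, Gbp2 and Gbp2b are among the 39 but passed the filter only through groups with LPS, so their rise is no separate support. The median and the count of 43 that follow also include members of this kind. The median log2 fold change of the 49 was 2.62, or 2.60 with the 5 members that had 0 counts in solvent set at their lower bounds, against -0.02 over all genes. In 43 members the 3 LPS libraries all lay above the 3 solvent libraries, against 15.7% of all genes. The members together took 0.419%, 0.419% and 0.421% of all counts in the LPS libraries, against 0.0973%, 0.0950% and 0.0946% in the solvent libraries. In bulk RNA, fewer cells that express a gene and less of its RNA per cell cannot be told apart.

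**Figure D1:**
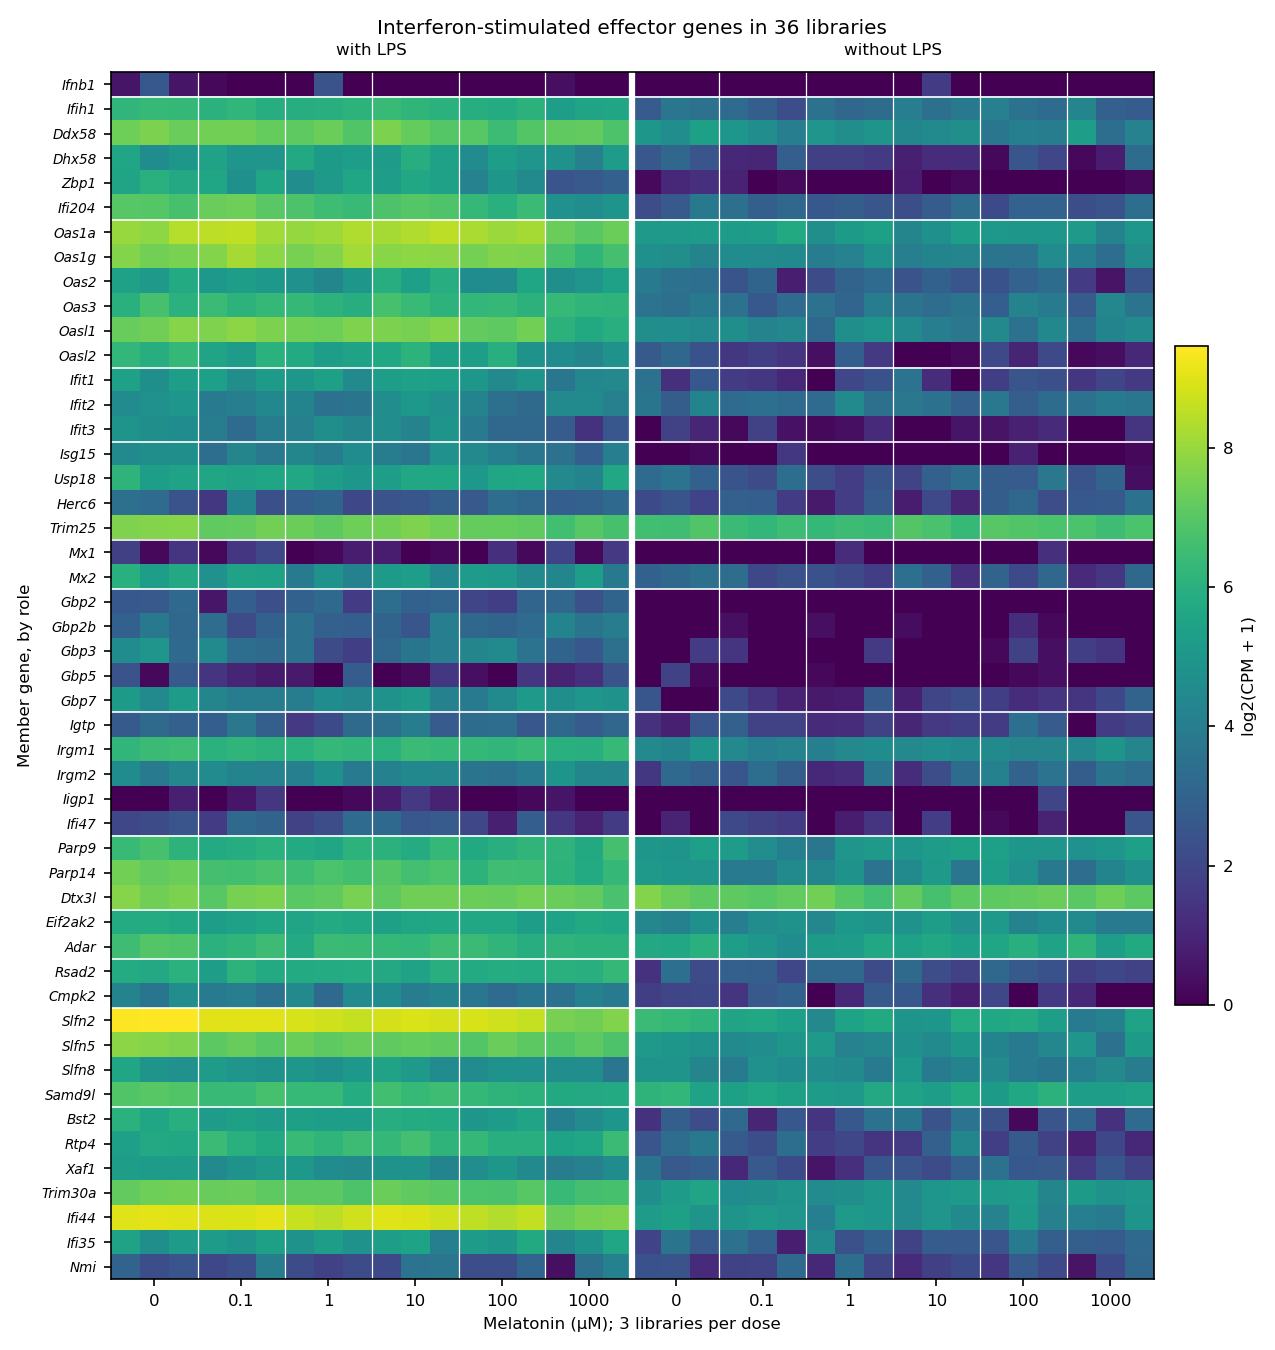
Level of each of the 49 members in each of the 36 libraries, as log2(CPM + 1). Columns are libraries, 3 per melatonin dose from 0 to 1000 µM, with LPS on the left and without LPS on the right; rows are genes grouped by role. Most rows are brighter with LPS, and Slfn2 and Ifi44 are the brightest rows in LPS alone.

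Interferon beta itself was sparse at 12 h. Ifnb1 had 0.455, 5.09 and 0.462 CPM in the LPS libraries and 0 counts in the 3 solvent libraries. It was at least 12.6-fold higher in LPS than a total of 3 counts over the solvent libraries would give, a bound that covers counting error only. The difference did not pass the test (adjusted p = 0.138), and 1 LPS library held most of the reads. With LPS and 1 mM melatonin it had 0.306, 0 and 0 CPM. It was at 0 in all 3 libraries of LPS with 10 µM and with 100 µM melatonin, and at 4.32 CPM in 1 library of LPS with 1 µM. Reads were not confined to cells with LPS. The libraries of 10 µM melatonin alone held 17 counts of Ifnb1, at least 4.63-fold higher than 3 counts over the solvent libraries would give. That difference did not pass the test either.

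All 5 nucleic acid sensors rose with LPS. Zbp1, a sensor of Z-form nucleic acid that can trigger cell death, had 44.5, 63.1 and 50.8 CPM in LPS libraries, against 0.170, 1.10 and 1.5 CPM in solvent libraries. Its log2 fold change was 5.79 ± 0.59 (SE, adjusted p = 5.12e-10). Ifi204, a DNA sensor of the PYHIN family, had 128, 125 and 105 CPM with LPS, against 3.73, 5.18 and 13.0 CPM with solvent, a log2 fold change of 4.01 ± 0.33 (adjusted p = 7.32e-13). Neither gene had an LPS library near its solvent libraries. The RNA helicases Ifih1 (MDA5), Ddx58 (RIG-I) and Dhx58 (LGP2) had log2 fold changes of 2.99, 2.43 and 2.52.

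All 6 oligoadenylate synthetase genes rose as well. The active enzymes of this family make the messenger that activates RNase L, and not every member has that activity. Oas1a, the member of the family with the highest level per gene length in LPS (142 ± 28.2 FPKM, SD, n = 3), had 258, 229.7 and 335 CPM with LPS, against 32.6, 33.7 and 36.2 CPM with solvent (log2 fold change 3.00 ± 0.22, adjusted p = 1.34e-14). Oas1g had 208, 171 and 188 CPM with LPS, against 25.6, 24.5 and 17.8 CPM with solvent. Oasl1, which in mouse restrains the translation of Irf7, had 153, 170.0 and 212 CPM with LPS, against 24.6, 23.7 and 22.1 CPM with solvent (2.92 ± 0.28). Oasl2 had the largest log2 fold change of the family, 3.58 ± 0.47, with 75, 58.7 and 76.9 CPM with LPS against 5.43, 8.00 and 4.19 CPM with solvent. In all 4 genes the groups were far apart.

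Isg15, a ubiquitin-like protein that is attached to other proteins, went to 21.2, 24.9 and 25.0 CPM with LPS, where the solvent libraries had 0, 0 and 0.150 CPM. With 1 count over the 3 solvent libraries, the ratio was 449 with a 95% exact interval of 80.2 to 17800 (counting error only), and the test passed (adjusted p = 2.95e-07). Usp18, which removes ISG15, rose (log2 fold change 2.49), and Herc6, the main ISG15 ligase in mouse, did not pass (1.13 ± 0.72, adjusted p = 0.321). Trim25, a ubiquitin and ISG15 ligase that acts with RIG-I, had 197, 206 and 210.4 CPM with LPS, against an already high 96.7, 94.1 and 117 CPM with solvent (0.99 ± 0.15, adjusted p = 1.55e-06). The 3 IFIT genes, whose proteins bind foreign RNA ends, all rose, though Ifit2 (1.13, adjusted p = 0.0395) missed the threshold in 6 of 12 alternatives: no filter, only the compared groups, and without solvent replicate 1 or 2 or LPS replicate 2 or 3 (adjusted p at most 0.232). Ifit3 had 28.9, 25.0 and 23.1 CPM with LPS, against 0, 2.67 and 1.05 CPM with solvent (4.34 ± 0.90, adjusted p = 0.000299).

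Among the large GTPases, Mx2 rose to 63.8, 37.9 and 50.8 CPM with LPS, against 6.62, 8.16 and 10.3 CPM with solvent (log2 fold change 2.60 ± 0.52, adjusted p = 0.000198). Mx1 was sparse, at 2.42, 0.145 and 1.69 CPM with LPS and 0 counts in solvent, and did not pass (adjusted p = 0.119). Of the 5 guanylate-binding proteins, which coat pathogen vacuoles and bacteria, 4 rose. Gbp2b had 6.67, 13.2 and 7.86 CPM with LPS and 0 counts in solvent, at least 58.4-fold higher than 3 counts over the group, and Gbp2 was at least 39.7-fold higher. Gbp3, with the highest FPKM of the family in LPS (6.05 ± 3.23, SD, n = 3), had 23.2, 29.4 and 8.32 CPM with LPS, against 0, 0 and 2.24 CPM with solvent. Gbp5 did not pass (adjusted p = 0.599). Of the 5 immunity-related GTPases, which act on the same vacuoles in mouse, 2 passed, and all 5 had a positive fitted change. Irgm1 had 74.2, 86.5 and 90.6 CPM with LPS, against 21, 18.2 and 28.9 CPM with solvent (1.88 ± 0.21, adjusted p = 2.78e-09). Irgm2 also passed (adjusted p = 0.034), but not without solvent replicate 1 or 3 or LPS replicate 1 or 3 (adjusted p at most 0.186 over its alternatives). Igtp, Iigp1 and Ifi47 did not pass, and Iigp1 was at 0, 0 and 0.770 CPM with LPS.

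The ADP-ribosyltransferases Parp14 and Parp9 rose, and Dtx3l, the ubiquitin ligase that forms a complex with PARP9, did not pass. Dtx3l had 214, 171 and 192 CPM with LPS, against 206, 162 and 134 CPM with solvent, so its groups overlapped (log2 fold change 0.20 ± 0.19, adjusted p = 0.54). Parp14 had 173, 143 and 159.9 CPM with LPS, against 32.9, 30.0 and 29.8 CPM with solvent (2.36 ± 0.31). Eif2ak2, the kinase PKR that stops translation when it binds double-stranded RNA, had 56.1, 55.2 and 49.9 CPM with LPS, against 20.0, 16.6 and 26.0 CPM with solvent (1.36 ± 0.26). Adar, which edits adenosine in double-stranded RNA, had 91.8, 120.2 and 116 CPM with LPS, against 51.1, 49.2 and 63.9 CPM with solvent (1.00 ± 0.22). Both rose, by less than the median member.

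Rsad2, which encodes viperin, an enzyme that makes a chain-terminating nucleotide, had 54.9, 51.9 and 65.6 CPM with LPS, against 1.53, 9.88 and 3.44 CPM with solvent (log2 fold change 3.53 ± 0.41, adjusted p = 6.49e-09). Its neighbour Cmpk2, a nucleotide kinase, also rose (2.64 ± 0.84, adjusted p = 0.0221), but missed the threshold without any 1 of the 3 solvent libraries or without LPS replicate 3 (adjusted p at most 0.0848). Slfn2, known in mouse for keeping T cells quiescent, had the highest level per gene length of all members in LPS, 406 ± 5.54 FPKM (SD, n = 3). It had 683, 698 and 702 CPM with LPS, against 85.7, 78.6 and 70.2 CPM with solvent (3.15 ± 0.26, adjusted p = 8.26e-13). Slfn5 and Samd9l rose, and Slfn8 did not pass. Samd9l had 118, 128 and 116 CPM with LPS, against 70.3, 74.8 and 42.2 CPM with solvent (0.95 ± 0.21).

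Of the 7 remaining effectors, 6 rose and Nmi did not pass (adjusted p = 0.721). Ifi44, an interferon-induced protein with a GTP-binding motif, had 512, 532 and 518 CPM with LPS, against 35.6, 40.8 and 29.0 CPM with solvent (log2 fold change 3.89 ± 0.23, adjusted p = 4.34e-17). Trim30a had 144, 166 and 171 CPM with LPS, against 25.5, 36.5 and 44.4 CPM with solvent. Rtp4, a transmembrane protein that restricts flaviviruses, had 39.4, 50.7 and 49.1 CPM with LPS, against 4.58, 9.41 and 13.0 CPM with solvent (2.36 ± 0.44). Bst2 (tetherin, which holds budding virions at the cell surface), Xaf1 and Ifi35 had log2 fold changes of 3.86, 2.24 and 2.41.

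Pooling the 3 lowest melatonin doses gave a second, deeper view of the LPS response in other libraries, 9 with LPS and 9 without. There, 46 members were higher and 0 lower with LPS, against 16.2% higher and 17.1% lower over all genes. All 39 of the members raised by LPS alone were among them, and Herc6, Gbp5, Igtp, Iigp1, Ifi47, Dtx3l and Slfn8 passed in addition. Ifnb1, Mx1 and Nmi did not pass. Some of these 7 calls are fragile. Dtx3l (adjusted p = 0.05 after rounding) was lost in 16 of 24 alternatives, among them RLE factors, the replicate block and DESeq2, and Herc6 in 12 of 24, among them the fit without the libraries in doubt. Ifi47 was lost without any 1 of 4 libraries (replicate 1 or 3 of 10 µM melatonin, replicate 1 of 1 µM melatonin, or replicate 3 of LPS with 1 µM). Iigp1 was lost with DESeq2 and without replicate 3 of LPS with 1 µM melatonin. Gbp5 and Iigp1, and of the 39 Zbp1, Isg15, Gbp2 and Gbp2b, passed the filter only through groups with LPS. The 18 libraries here include melatonin in every cell, so this is the LPS response at low melatonin.

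With LPS and 1 mM melatonin, a subset of the raised genes was lower than with LPS. Of 49 members, 15 were lower and 0 higher, where 4.71% of all genes were lower and 2.84% higher. The median log2 fold change of the members was -0.74, against 0.02 over all genes. In 27 members the 3 libraries of LPS with 1 mM melatonin all lay below the 3 LPS libraries, against 11.2% of all genes. The members took 0.237%, 0.240% and 0.295% of all counts with LPS and 1 mM melatonin, against 0.419%, 0.419% and 0.421% with LPS. All 15 belonged to the 39 that LPS raised, and the other 24 did not pass. Without replicate 3 of LPS with 1 mM melatonin, 12 of the 15 passed, and Ifit3, Slfn5 and Adar did not.

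**Figure D2:**
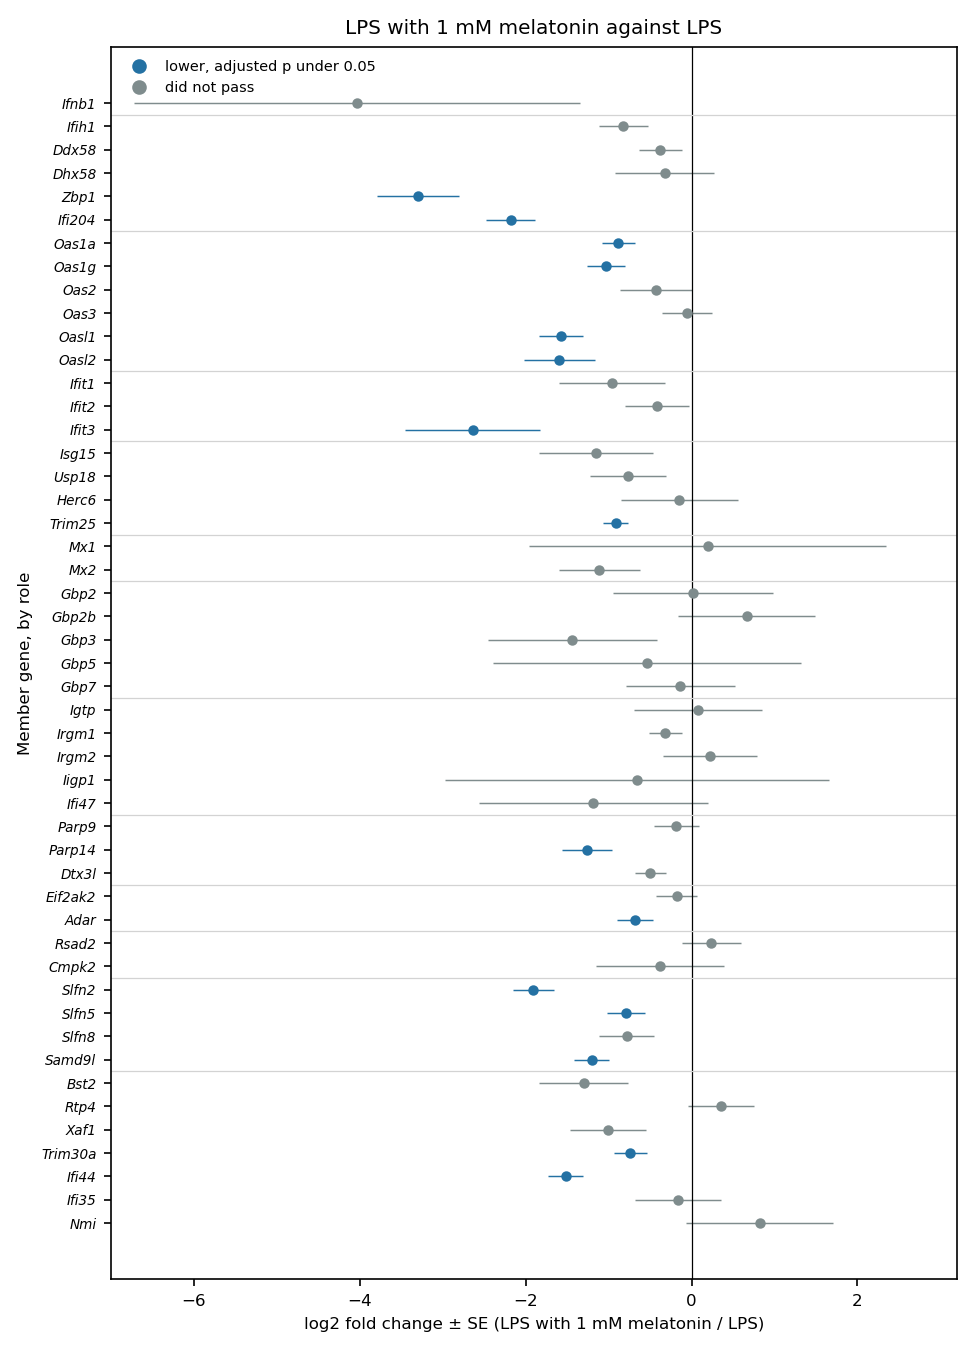
Log2 fold change of LPS with 1 mM melatonin over LPS for each of the 49 members, grouped by role, with bars of 1 SE and 3 libraries per group. Zbp1, Ifit3 and Ifi204 lie farthest below 0 among the 15 members that passed, and Rsad2, Rtp4 and Gbp2b lie slightly above 0 without passing.

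The sensors Zbp1 and Ifi204 were among the strongest. Zbp1 fell to 4.59, 5.17 and 6.38 CPM with LPS and 1 mM melatonin, against 44.5, 63.1 and 50.8 CPM with LPS (log2 fold change -3.30 ± 0.50, adjusted p = 9.52e-06). Ifi204 fell to 26.3, 23.9 and 28.7 CPM, against 128, 125 and 105 CPM with LPS (-2.18 ± 0.30, adjusted p = 1.08e-06). Neither gene's groups overlapped. The helicases did not pass, with log2 fold changes of -0.82 for Ifih1 (adjusted p = 0.0897), -0.38 for Ddx58 and -0.32 for Dhx58.

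The oligoadenylate synthetases split. Oasl1 fell to 66.1, 53.2 and 59.6 CPM with LPS and 1 mM melatonin, against 153, 170.0 and 212 CPM with LPS (log2 fold change -1.58 ± 0.26, adjusted p = 4.35e-05). Oasl2 fell to 23.1, 19.4 and 27.3 CPM, against 75, 58.7 and 76.9 CPM with LPS (-1.59 ± 0.43, adjusted p = 0.0129), and missed the threshold without replicate 2 of LPS with 1 mM melatonin (adjusted p at most 0.0641). Oas1a had 155, 129 and 161 CPM, against 258, 229.7 and 335 CPM with LPS (-0.89 ± 0.20, adjusted p = 0.00243). Oas1g had 103, 71.7 and 102 CPM, against 208, 171 and 188 CPM with LPS (-1.04 ± 0.23, adjusted p = 0.00188). All 4 were lower in every library. Oas2 and Oas3 did not pass, and Oas3 had 79.6, 72.6 and 70.2 CPM with LPS and 1 mM melatonin, against 63.8, 103 and 64.1 CPM with LPS (-0.05 ± 0.30).

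Slfn2 fell to 184, 168 and 204 CPM with LPS and 1 mM melatonin, against 683, 698 and 702 CPM with LPS (log2 fold change -1.91 ± 0.25, adjusted p = 3.6e-07). Samd9l fell to 52.5, 51.0 and 53.6 CPM, against 118, 128 and 116 CPM with LPS (-1.21 ± 0.21, adjusted p = 8.88e-05). Slfn5 was lower at an adjusted p of 0.024, which rose to at most 0.0906 when 1 library was left out (LPS replicate 1 or 2, or replicate 1 or 3 of LPS with 1 mM melatonin). Ifi44 fell to 161, 189 and 196 CPM, against 512, 532 and 518 CPM with LPS (-1.52 ± 0.21, adjusted p = 1.29e-06). Each of these genes had all its libraries of LPS with 1 mM melatonin below those of LPS.

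Trim25 had 96.1, 125 and 103 CPM with LPS and 1 mM melatonin, against 197, 206 and 210.4 CPM with LPS (log2 fold change -0.92 ± 0.15, adjusted p = 2.54e-05). Parp14 had 67.5, 54.0 and 77.5 CPM, against 173, 143 and 159.9 CPM with LPS (-1.26 ± 0.30, adjusted p = 0.00377). Trim30a had 84.9, 100.3 and 103 CPM, against 144, 166 and 171 CPM with LPS (-0.74 ± 0.20, adjusted p = 0.0121), and missed the threshold without LPS replicate 3 or replicate 1 of LPS with 1 mM melatonin (adjusted p at most 0.069). Ifit3 had 5.82, 1.58 and 4.98 CPM, against 28.9, 25.0 and 23.1 CPM with LPS (-2.64 ± 0.81, adjusted p = 0.0351). Adar had 70.1, 67.3 and 67.0 CPM, against 91.8, 120.2 and 116 CPM with LPS (-0.68 ± 0.22, adjusted p = 0.0427). The calls of Ifit3 and Adar are fragile: Ifit3 was lost when any 1 of the 6 libraries was left out (adjusted p at most 0.16), and Adar when any but LPS replicate 1 was left out (at most 0.146).

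The 24 members that LPS raised and that did not pass here had fitted log2 differences between -1.44 (Gbp3) and 0.66 (Gbp2b). Rsad2 had 63.8, 61.5 and 77.7 CPM with LPS and 1 mM melatonin, against 54.9, 51.9 and 65.6 CPM with LPS (log2 fold change 0.24 ± 0.36, adjusted p = 0.8). Rtp4 had 44.4, 47.9 and 86.1 CPM, against 39.4, 50.7 and 49.1 CPM with LPS (0.35 ± 0.40), and Gbp2b had 18.1, 11.4 and 14.6 CPM, against 6.67, 13.2 and 7.86 CPM with LPS (0.66 ± 0.83). In these 3 genes the groups overlapped. Eif2ak2 had 43.3, 52.7 and 46.0 CPM, against 56.1, 55.2 and 49.9 CPM with LPS (-0.18 ± 0.25), and Irgm1 63.7, 59.3 and 78.9 CPM, against 74.2, 86.5 and 90.6 CPM with LPS (-0.32 ± 0.20, adjusted p = 0.409). Isg15 had 10.4, 6.18 and 15.3 CPM, all below the 21.2, 24.9 and 25.0 CPM with LPS, and did not pass (-1.16 ± 0.69, adjusted p = 0.369). Mx2 (-1.11 ± 0.49), Gbp3 (-1.44 ± 1.02) and Bst2 (-1.30 ± 0.53) did not pass either. None of the 5 guanylate-binding proteins, the 5 immunity-related GTPases or the pair at the viperin locus passed. A miss of the threshold does not show that these genes were unaffected.

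At the lower doses no member passed the test against LPS. All 5 comparisons below share the 3 LPS libraries, so they are not independent of each other. The members' median log2 fold change against LPS was -0.30, -0.35, -0.12, -0.49 and -0.74 for 0.1, 1, 10 and 100 µM and 1 mM melatonin in that order, where the median of all genes was 0 at the 4 lower doses and 0.02 at 1 mM. At 0.1, 1, 10 and 100 µM, 0 members were higher and 0 were lower, where 0.706%, 0.318%, 0.177% and 0.547% of all genes were lower and 0.653%, 0.294%, 0.194% and 0.636% were higher. Without adjustment, 5, 9, 4 and 13 members were lower at p under 0.05, where 6.95%, 5.93%, 4.75% and 5.72% of all genes were. By the same measure 0, 0, 1 and 0 members were higher, against 6.58%, 5.81%, 5.06% and 6.73% of all genes. The count at 100 µM depended on the fit. With edgeR fitted to only LPS with 100 µM melatonin and LPS, 13 members were lower, among them Ddx58, Zbp1, Ifi204, Trim25 and Ifi44, where 2.38% of all genes were lower in that fit. With DESeq2 2 were lower, Trim25 and Samd9l, and 0.995% of all genes were. Ifi204 had 78.7, 62.7 and 87.0 CPM at 100 µM, and Ifi44 had 378, 333 and 383 CPM, each below its 3 LPS libraries. The 3 libraries of a dose all lay below the 3 LPS libraries in 16, 17, 11 and 21 members for 0.1, 1, 10 and 100 µM, against 9.16%, 8.84%, 8.5% and 9.17% of all genes.

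**Figure D3:**
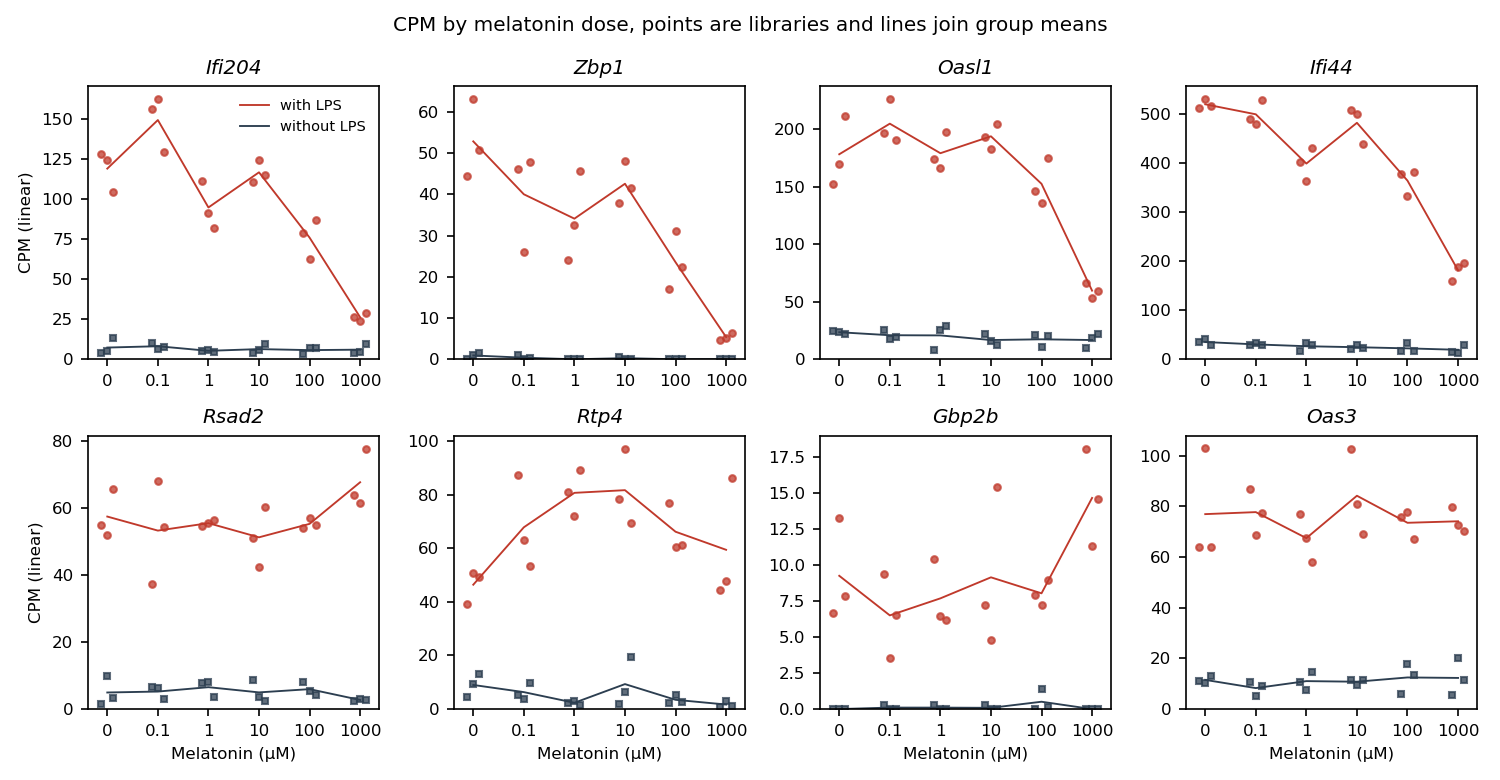
CPM (linear axes) of 8 members by melatonin dose in µM, with LPS in red and without LPS in dark blue; points are libraries and lines join the means of 3. With LPS, Ifi204, Zbp1, Oasl1 and Ifi44 are lowest at 1000 µM, while Rsad2, Rtp4, Gbp2b and Oas3 overlap with LPS alone there.

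Against the 9 libraries of LPS with 0.1, 1 and 10 µM melatonin, 11 members were lower with LPS and 1 mM melatonin and 0 were higher, where 6.59% of all genes were lower and 4.85% higher. This comparison does not use the libraries of LPS alone. It shares the 3 libraries of LPS with 1 mM melatonin with the comparison against LPS, so the results are not independent of each other. The log2 fold change was -2.85 ± 0.45 for Zbp1, -2.17 ± 0.27 for Ifi204, -1.69 ± 0.24 for Oasl1, -1.35 ± 0.21 for Slfn2 and -1.34 ± 0.18 for Ifi44. All 11 (these 5 with Oas1a, Oas1g, Ifit3, Trim25, Samd9l and Trim30a) were among the 15. Without replicate 2 of LPS with 1 mM melatonin, Samd9l no longer passed (adjusted p at most 0.052), nor did Trim30a, which was also lost without replicate 1 (at most 0.147). Ifit3 was lost without any of the 3, and without 6 of the 9 low-dose libraries (at most 0.226). Over the log10 of the 5 doses with LPS, 10 members had a falling slope and 0 a rising one, against 4.63% and 2.38% of all genes. The steepest were Zbp1, at -0.63 ± 0.11 log2 units per 10-fold dose, and Ifi204, at -0.53 ± 0.07. Without the 1 mM dose, 0 members had a slope past the threshold, where 0% of all genes fell and 0.0177% rose. Of the 10, 9 slopes were then still negative, at -0.26 ± 0.09 for Ifi204, -0.20 ± 0.14 for Zbp1, -0.11 ± 0.06 for Ifi44 and -0.10 ± 0.06 for Trim30a, and that of Trim25 was 0.0036.

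In cells that all received 1 mM melatonin, LPS still raised 33 members and lowered 0, where 4.87% of all genes were higher and 4.75% lower. In 39 members the LPS libraries all lay above the others, against 10.4% of all genes. All 33 were among the 39 raised without melatonin. They include Zbp1, Isg15, Gbp2 and Gbp2b, which passed the filter only through groups with LPS. Ifit2, Trim25, Gbp3, Irgm2, Adar and Samd9l passed without melatonin and not here. Rsad2 had 63.8, 61.5 and 77.7 CPM with LPS and 1 mM melatonin, against 2.49, 3.10 and 2.58 CPM with 1 mM melatonin (log2 fold change 4.62 ± 0.44, adjusted p = 9.28e-11). Gbp2b was at least 104-fold higher with LPS and 1 mM melatonin than 3 counts over the 1 mM melatonin libraries. Isg15 was 216 times as high (95% exact interval 38.3 to 8590, from 1 count in 1 mM melatonin). Without the libraries in doubt the same 33 members passed, where 5.06% of all genes were higher in that fit. Rsad2 was then at 4.58 ± 0.51, while genes sparse in 1 mM melatonin moved more: Dhx58 was at 5.94 ± 0.81, against 3.01 ± 0.67 with all libraries, and Ifit3 at 7.75 ± 1.58, against 2.81 ± 0.92. Trim25 had 108, 91.9 and 109 CPM with 1 mM melatonin alone, overlapping its level with LPS and 1 mM melatonin (0.07 ± 0.15, adjusted p = 0.869).

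**Figure D4:**
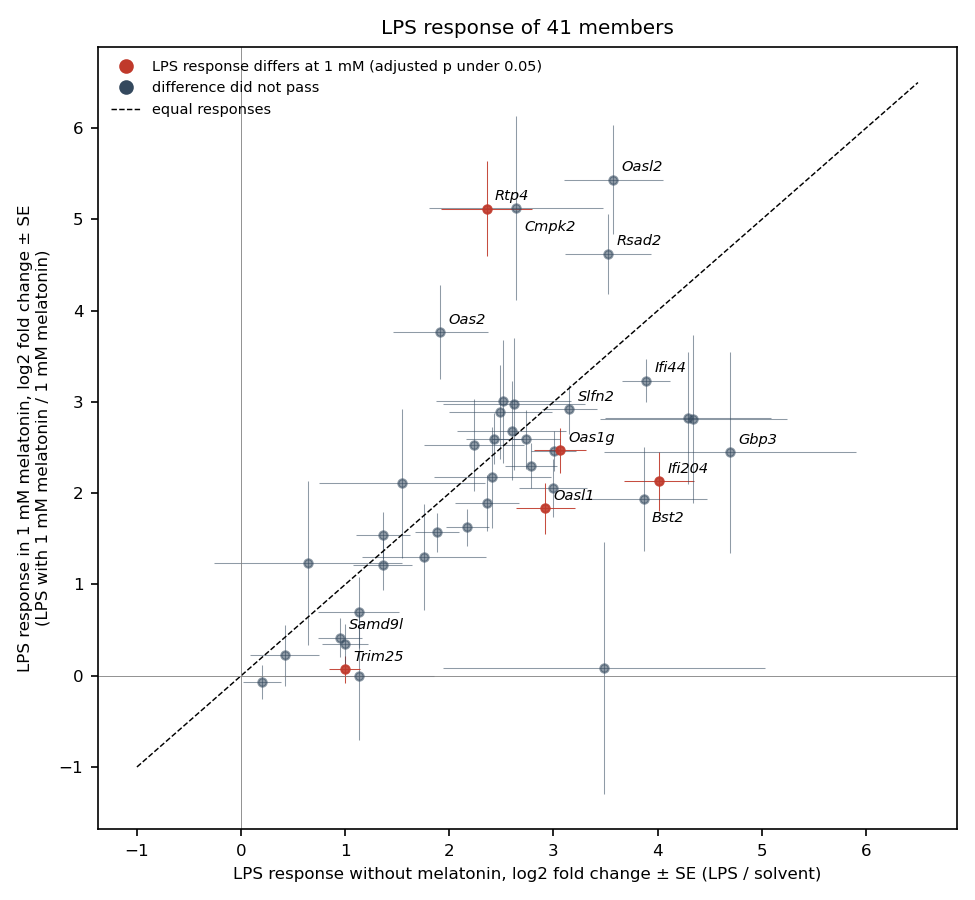
LPS response of 41 members in 1 mM melatonin (vertical) against the response without melatonin (horizontal), both as log2 fold change with bars of 1 SE from 3 libraries per group; 8 members with 3 or fewer counts in solvent or 1 mM melatonin are left out. Points below the dashed line of equal responses responded less in 1 mM melatonin. Red points (Ifi204, Trim25, Oasl1, Oas1g and Rtp4) passed a test of a different response at 1 mM, against no melatonin or against the 3 lowest doses.

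The test of the difference itself, the interaction of LPS with 1 mM melatonin, passed for 2 members with a smaller LPS response (Ifi204 and Trim25) and 1 with a larger response (Rtp4). Over all genes 1.06% had a lower and 0.63% a higher response. The difference in log2 response was -1.88 ± 0.45 for Ifi204 and -0.92 ± 0.21 for Trim25. Rtp4 had a difference of 2.76 ± 0.66, and beside it stand its levels without LPS, 0.830, 3.10 and 1.15 CPM in 1 mM melatonin against 4.58, 9.41 and 13.0 CPM in solvent, while its levels with LPS overlapped. Without the libraries in doubt, 1 member had a lower response, Trim25 (-0.88 ± 0.21, adjusted p = 0.014), and 4 a higher one: Dhx58, Oas2, Oasl2 and Rtp4. In that fit 1.31% of all genes had a lower and 1.24% a higher response. Dhx58, Oas2, Oasl2 and Rtp4 were there also lower in 1 mM melatonin alone than in solvent. Their log2 fold changes were -3.74, -3.10, -4.68 and -2.20, partly set by the choice of the libraries in doubt. Ifi204 was then at -1.37 ± 0.46 (adjusted p = 0.121). Ifi204 also missed the threshold without solvent replicate 1 or 2 or without replicate 3 of 1 mM melatonin (adjusted p at most 0.132), and Rtp4 without solvent replicate 3 or replicate 1 of 1 mM melatonin (at most 0.0709). With only the 4 compared groups fitted, Rtp4 passed and Ifi204 and Trim25 did not. Against the 3 lowest doses in place of no melatonin, Ifi204, Oasl1, Trim25 and Oas1g had a smaller response and 0 members a larger one, against 1.92% and 0.783% of all genes. Without the libraries in doubt, Ifi204, Oasl1 and Trim25 kept this call and Oas1g lost it, as it did without replicate 3 of 1 mM melatonin or replicate 2 of LPS with 1 mM melatonin (adjusted p at most 0.251).

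With melatonin alone, few members passed the test. At 1 mM, 4 members were lower and 0 higher than in solvent, where 0.318% of all genes were lower and 0.1% higher. Slfn2 had 13.6, 17.1 and 42.9 CPM in 1 mM melatonin, against 85.7, 78.6 and 70.2 CPM in solvent (log2 fold change -1.67 ± 0.26, adjusted p = 0.00041). Oasl2 had 0.138, 0.282 and 1.15 CPM, against 5.43, 8.00 and 4.19 CPM in solvent (-3.45 ± 0.62, adjusted p = 0.00324). The others were Rtp4, at -2.41 ± 0.52, and Oas2, at -2.28 ± 0.51. Without the libraries in doubt, 9 members were lower, where 2.16% of all genes were lower in that fit, and Slfn2 was at -2.35 ± 0.21. The 9 were Dhx58, Zbp1, Oas2, Oasl2, Ifit3, Mx2, Slfn2, Rtp4 and Ifi44. Of these, Zbp1, Oasl2, Ifit3, Slfn2 and Ifi44 were also lower with LPS and 1 mM melatonin than with LPS. That fit leaves out the 1 mM library with the lowest score, so a larger difference there is partly set by the choice. Leaving out replicate 3 of 1 mM melatonin alone gave 8 lower members. Leaving out solvent replicate 2 or 3, or replicate 1 or 2 of 1 mM melatonin, gave 2 lower members each time: Oasl2 was lost without either of these melatonin libraries (adjusted p at most 0.444), Rtp4 without solvent replicate 2 or 3 or melatonin replicate 1 (at most 0.433), and Oas2 without any library but melatonin replicate 3 (at most 0.398). With edgeR fitted to only these 2 groups, 0 passed, where 0.0471% of all genes were lower and 0.0235% higher. The adjusted p of Slfn2 was 0.0602 in that fit. At 10 µM, Oasl2 had 0, 0 and 0.148 CPM, against 5.43, 8.00 and 4.19 CPM in solvent, the only member of 49 that passed there (adjusted p = 6.13e-05). Its ratio to solvent was 0.00769, with a 95% exact interval of 0.000193 to 0.0437 that covers counting error only. At 10 µM 0.0706% of all genes were lower and 0.0118% higher. At 0.1, 1 and 100 µM 0 members were higher or lower, where 0.206%, 0.0824% and 0.0235% of all genes were lower and 0.135%, 0.0648% and 0.0589% higher. Without adjustment, 10, 12, 11, 9 and 13 members were lower at 0.1, 1, 10 and 100 µM and 1 mM, at p under 0.05, where 4.86%, 4.28%, 3.59%, 3.01% and 5.93% of all genes were. By the same measure 1, 0, 2, 2 and 0 members were higher, against 4.44%, 4.01%, 3.23%, 2.96% and 4.89% of all genes. All these comparisons share the 3 solvent libraries. Slfn2 had 21 to 55.9 CPM over the 12 libraries of melatonin alone at 0.1 to 100 µM, all below its 3 solvent libraries, and these comparisons did not pass (adjusted p = 0.205, 0.128, 0.137 and 0.592 for 0.1, 1, 10 and 100 µM). With no filter on low counts, Slfn2 passed as lower at all 4 of these doses.

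The genes that carry the interferon signal, listed apart from the members, moved less as a list. Of 30 such genes 27 were tested, and with LPS 9 were higher and 4 lower than in solvent. Over all genes, 8.39% were higher and 8.09% lower. Irf7, the factor that amplifies interferon production, had 149.7, 170.0 and 124 CPM with LPS, against 1.36, 6.43 and 3.14 CPM with solvent (log2 fold change 5.33 ± 0.55). Ikbke, a kinase that activates IRF3 and IRF7, averaged 94.4 CPM with LPS and 10.0 CPM with solvent. Socs3, which limits cytokine signals, had a log2 fold change of 2.94 ± 0.34. The genes Ifna4, Ifna2 and Ifng had 0 counts in LPS with 1 mM melatonin, LPS, 1 mM melatonin and solvent libraries. With LPS and 1 mM melatonin, 2 of 27 were lower than with LPS, where 4.71% of all genes were lower. They were Irf8, at 32.5 against 85.1 CPM (-1.40 ± 0.24), and Ikbke, at 38.6 against 94.4 CPM (-1.29 ± 0.42). Irf7 was at 58.7 against 148 CPM with LPS and did not pass (adjusted p = 0.0533).

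Other genes moved beside the members. Of 16 tested genes for inflammatory cytokines and enzymes, 13 were lower with LPS and 1 mM melatonin than with LPS, against 4.71% of all genes. Their median log2 fold change was -3.76. Ccl5, a chemokine gene that LPS induces in macrophages, had 824, 746 and 621 CPM with LPS and 1 mM melatonin, against 718, 610.3 and 750.1 CPM with LPS, and its groups overlapped (log2 fold change 0.08 ± 0.27). Of the macrophage markers, Lyz2, Itgam, Adgre1, Fcgr1 and Ptprc were lower with LPS and 1 mM melatonin than with LPS, and Csf1r and Cd68 did not pass. Lyz2 averaged 1386 CPM with LPS and 1 mM melatonin and 8241 CPM with LPS. Their part in the members' differences was not tested.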

How the data were processed

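Libraries (36) were made from Trizol-extracted RNA with an Illumina TruSeq kit, per the labels' protocols. The submitters' processing notes name cutadapt, featureCounts and the mm10 genome as what the authors used. Versions, aligner and strand setting are not given in the sources used here. The deposited table of raw counts was tested, and the authors' FPKM table gave symbols and levels per gene length. Groups came from the labels.

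Counts were analysed with edgeR 4.0.16 in R 4.3.3. The filter filterByExpr kept 16988 genes. TMM factors were 0.914 to 1.19. Quasi-likelihood tests were fitted over all 36 libraries with a mean for each group, for 17 contrasts, with Benjamini-Hochberg adjustment over all genes per contrast at 0.05. SE is the log2 fold change over the root of F. CPM uses TMM-scaled library sizes. Bounds use 3 counts over a group. Genes were named by role-based rules: members past the threshold with LPS and 1 mM melatonin, the highest and most changed member of each role, and Ifnb1 and Isg15; Oas3 and the other members named outside these rules were added after their values were seen. Members and lists were chosen with earlier results of these data known. Alternatives were RLE factors, no filter, a replicate block, only the compared groups, no libraries in doubt, DESeq2 1.42.0, and leaving out each library, where the dispersion trend of all libraries was kept. The procedure was also run on counts simulated from the fitted means and dispersions, with independent libraries. Such counts cannot test for wrong labels or for libraries that are technical replicates.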

Additional observations from a re-analysis of the deposited data

Results flagged for a closer look

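In 5 members a test of the difference itself passed between the LPS response with 1 mM melatonin and that of other cells. Against no melatonin, 1.06% of all genes had a smaller and 0.63% a larger response. Against the 3 lowest doses these shares were 1.92% and 0.783%. Against no melatonin, the difference in log2 response was -1.88 ± 0.45 for Ifi204 (edgeR, adjusted p = 0.0149), -0.92 ± 0.21 for Trim25 (adjusted p = 0.01) and 2.76 ± 0.66 for Rtp4 (adjusted p = 0.0149). Against 0.1, 1 and 10 µM melatonin, it was -2.06 ± 0.37 for Ifi204 (adjusted p = 0.000506), -1.48 ± 0.32 for Oasl1 (adjusted p = 0.0039), -0.79 ± 0.17 for Trim25 (adjusted p = 0.00474) and -1.07 ± 0.28 for Oas1g (adjusted p = 0.0238). Both tests use the same libraries with 1 mM melatonin. Without the libraries in doubt, Ifi204 missed the threshold against no melatonin (edgeR, adjusted p = 0.121), and Oas1g against the 3 lowest doses (0.251). With only the compared groups fitted, Ifi204 and Trim25 missed it against no melatonin. Rtp4 missed it there without solvent replicate 3 or replicate 1 of 1 mM melatonin. Rtp4 did not pass against the 3 lowest doses (1.23 ± 0.56, adjusted p = 0.296).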

How the results depend on the processing

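The count of members raised by LPS was 39 and stayed between 36 and 38 when 1 library was left out, and that of members lower with LPS and 1 mM melatonin was 15 and stayed between 11 and 13. The same counts ranged from 43 to 47 for the pooled LPS response, 30 to 33 for the response in 1 mM melatonin, 8 to 12 against the 3 lowest doses and 7 to 9 for the slope. For the interaction they ranged from 0 to 3 higher and 1 to 2 lower, and against the 3 lowest doses from 0 to 1 higher and 3 to 6 lower. For melatonin alone they ranged from 0 to 1 higher and 2 to 8 lower at 1 mM, 0 to 1 lower at 100 µM, 0 to 1 higher and 1 to 2 lower at 10 µM, and 0 to 1 lower at 1 µM. At 0.1 µM alone and at 0.1 to 100 µM with LPS they were 0 each time.

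Percentages in brackets here are shares of all genes in the same fit. With no filter on low counts, 2 members were lower at 100 µM with LPS (0.411%) and 1 at 1 µM (0.272%). For the interaction 4 were lower (0.595%), and for the interaction against the 3 lowest doses 1 was higher (0.461%). For melatonin alone at 1 mM, 100, 10, 1 and 0.1 µM, 7, 4, 3, 3 and 1 were lower (0.334%, 0.0639%, 0.0945%, 0.156% and 0.231%). Without the libraries in doubt, 2 members were lower at 100 µM with LPS (1.01%) and 1 at 1 µM (0.73%). For the interaction 1 was lower (1.31%) and 4 were higher (1.24%). For melatonin alone at 1 mM, 100, 10 and 0.1 µM, 9, 1, 2 and 2 were lower (2.16%, 0.0765%, 0.159% and 0.494%). With only the compared groups fitted, 13, 3, 7 and 3 were lower at 100, 10, 1 and 0.1 µM with LPS (2.38%, 1.54%, 1.69% and 1.88%). At 10 and at 1 µM with LPS, 1 member was higher (1.05% and 1.31%). For the interaction 0 were lower (0.43%). For melatonin alone at 1 mM, 10 and 0.1 µM, 0, 2 and 2 were lower (0.0471%, 0.383% and 1.42%). With DESeq2, 2 members were lower at 100 µM with LPS (0.995%) and 1 at 1 µM (0.748%). For melatonin alone at 100, 1 and 0.1 µM, 2, 2 and 1 were lower (0.0824%, 0.188% and 0.483%). Without the 1 mM dose, 0 members had a falling slope past the threshold (0%), and the slope of Trim25 was 0.0036 log2 units per 10-fold dose. The cause of these changes was not tested.

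The labels do not say that replicate numbers pair the libraries, and the deviations of same-numbered libraries from their group means correlated at -0.035 to 0.028. With the replicate block, 39 members were higher with LPS (8.36% of all genes). With LPS and 1 mM melatonin 14 were lower (4.56% of all genes), and 10 against the 3 lowest doses (6.54%). RLE factors moved the median of all genes by under 0.05. At the lowest depth, a member with 0 counts can still be present, and Ifnb1, Mx1, Iigp1, Gbp5 and Gbp2 rest on few reads.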
